A study of Saccharomyces cerevisiae with 54 samples.

Results

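The mitochondrial ATP synthase of budding yeast is built mostly from subunits encoded in the nucleus, and 10 of those nuclear genes are described here in 17 strains of Saccharomyces cerevisiae. They were chosen by name, from the textbook composition of the enzyme, out of 6264 genes in the table. They are ATP1 (YBL099W, chromosome II), ATP2 (YJR121W, chromosome X), ATP3 (YBR039W, chromosome II), ATP16 (YDL004W, chromosome IV), ATP15 (YPL271W, chromosome XVI), ATP4 (YPL078C, chromosome XVI), ATP5 (YDR298C, chromosome IV), ATP7 (YKL016C, chromosome XI), ATP14 (YLR295C, chromosome XII) and ATP17 (YDR377W, chromosome IV). The chromosome was read from the systematic name. RNA from each of 17 non-laboratory strains (B1, I14, K1, K9, M22, M8, PR, RM11a, SB, Y1, Y10, Y12, YJM269, YJM308, YJM789, YPS1009 and YPS163) was co-hybridized with RNA of the diploid laboratory strain DBY8268, an S288c derivative that carries ura3-52 over ura3-delta and is homozygous for ho and for GAL2. All strains were grown in YPD, a rich glucose medium, at 30 °C for 3 doublings to an OD600 near 0.5, with no treatment. The study gives RM11a and YJM789 as haploid. Every value is the log2 ratio of a strain over DBY8268 on a spotted array of 70mer oligonucleotides designed against the S288c genome, so that 1.00 is a doubling, and there were 54 arrays, with 3 replicates in 14 strains and 4 in M8, Y10 and YPS163.

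ATP synthase makes ATP from ADP and phosphate as protons flow back into the mitochondrial matrix. Its F1 part holds a catalytic head of alternating alpha (ATP1) and beta (ATP2) subunits around a central stalk of gamma (ATP3), delta (ATP16) and epsilon (ATP15), which turns with the proton-driven ring in the membrane. A peripheral stalk made of subunit b (ATP4), OSCP (ATP5), subunit d (ATP7) and subunit h (ATP14) keeps the head from turning along, and subunit f (ATP17) belongs to the membrane sector. Yeast growing on glucose ferments and represses many respiratory genes, yet the enzyme is still made.

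The arrays held values for 3393 to 5897 genes (median 5305). The 10 genes had 524 of 540 possible values, so 3.0% were missing, against 19.1% over all genes. ATP1, ATP5 and ATP17 had a value on all 54 arrays and ATP4 had the fewest, 50. The direction of the ratios was checked on receptor genes of mating: STE2 (YFL026W), the alpha-factor receptor of a cells, was at 9.24, 7.48 and 7.49 on the 3 arrays of RM11a, and STE3 (YKL178C), the a-factor receptor of alpha cells, was at 7.70 and 7.18 on the 2 arrays of YJM789 that had a value. The cultures were whole populations, so fewer cells with a transcript and less transcript per cell cannot be told apart. RNA of the same laboratory strain was on every array, so the 17 comparisons are not independent of each other.

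Before the results, 3 arrays need to be set apart, which were picked after their ATP2 values had been seen. ATP2 was at 5.85 on replicate 3 of RM11a (0.59 and 0.27 on the other arrays of that strain), at 6.04 on replicate 2 of YJM789 (0.61 and 0.35) and at -5.78 on replicate 2 of YPS1009 (0.31 and 1.12). Its other 48 values lay between -0.15 and 1.57. On these arrays of RM11a, YJM789 and YPS1009, 5.66%, 7.18% and 3.34% of genes were off by 2 or more from the mean of the other arrays of the strain, against 0.465% to 5.36% (median 1.15%) on the 45 arrays of the 14 other strains, so the YPS1009 array lay within that range. The mean correlation with the other arrays of the strain was 0.48, 0.37 and 0.66, which ranked 7, 1 and 25 from the lowest of 54 arrays. Across genes, which are not independent of each other, these deviations correlated at 0.81 between the arrays of RM11a and YJM789 (3343 genes) and at -0.56 and -0.58 between those and the array of YPS1009, while the median over pairs of other arrays of different strains was -0.01. The arrays of RM11a and YJM789 came from slide series yG6, with the strain in opposite dyes, and that of YPS1009 from series yG5. Where these 3 arrays change a result for the 10 genes, it is given with and without them, and what set them apart was not tested.

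Nuclear ATP synthase transcripts were higher in the non-laboratory strains than in DBY8268. Averaged over the 17 strains, each of the 10 genes was higher (limma, adjusted p from 6.8e-15 for ATP5 to 0.0020 for ATP3), where over all genes with values in every strain 22.1% were called higher and 26.8% lower. The error in this test is that between arrays of a strain. It leaves out the spread between strains and the sharing of DBY8268 by all arrays. The median of the 10 averages was 0.59, a 1.5-fold difference, and that of all 4654 such genes was -0.02. Of the 524 single array values 466 were above 0, 57 below and 1 at 0. Of the 170 gene and strain means 162 (95.3%) were above 0, against 46.7% of such means over all genes.

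In single strains 21 of the 170 pairs passed the test, all of them higher than in DBY8268. That is 12.4% of the pairs, beside 3.86% of all gene and strain pairs called higher. No pair was called lower (limma, 0 pairs also at an unadjusted p under 0.05, and 0 when strains were fitted one at a time), where 4.88% of all pairs were. At a false discovery rate of 0.05 in place of 0.01, 51 pairs were higher and 0 lower. Fitted one at a time at 0.01, the strains gave 2 higher calls, 0 of them among the 21. Counts of 0 from that fit, here and below, therefore say little. Over the 170 pairs the median difference was 0.57 and the median standard error 0.25. Without the 3 arrays 29 pairs were called, 17 of them shared with the 21.

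**Figure D1:**
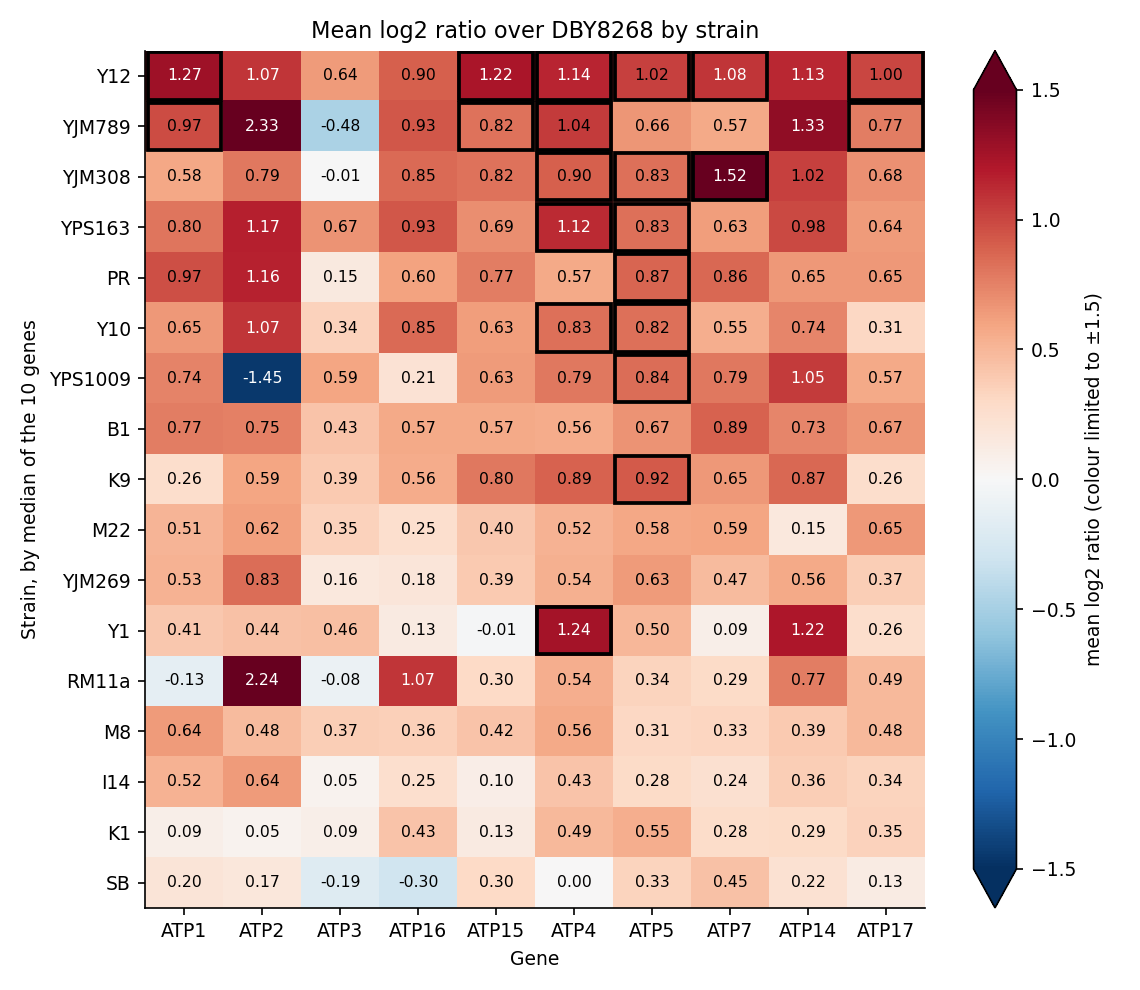
Mean log2 ratio over DBY8268 of each gene (columns, in order of subunit) in each strain (rows, from the highest to the lowest median of the 10 genes), with black frames around the 21 pairs called at a false discovery rate of 0.01. Most cells are above 0, Y12 at the top has 6 framed cells and SB at the bottom has none, and the ATP2 cells of RM11a (2.24), YJM789 (2.33) and YPS1009 (-1.45) each hold 1 of the arrays that stand apart.

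In the catalytic head, ATP1, the alpha subunit, averaged 0.58 ± 0.35 (SD over 17 strains) and was called in Y12 and YJM789. Its 54 array values ran from -0.50 through a median of 0.62 to 1.61, and 47 were above 0. In Y12 the 3 arrays gave 0.88, 1.61 and 1.33, a mean of 1.27 (limma, adjusted p = 7.9e-04), and in YJM789 they gave 0.86, 0.91 and 1.15, a mean of 0.97 (adjusted p = 0.0050). Both sets lie wholly above those of K1 (0.09, 0.13 and 0.04) and RM11a (-0.06, 0.15 and -0.48), the only strain with an ATP1 mean below 0 (-0.13). Strains set side by side here and below were picked as high or low from these same values. Arrays that do not overlap are therefore no test of a difference between them. Replicate 1 of both Y10 and YPS163 read -0.50, although the other 3 arrays of Y10 read 0.66 to 1.35 and those of YPS163 0.70 to 1.61. Without replicate 3 of RM11a, the strain mean was 0.05 and ATP1 was above 0 in all 17 strains.

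ATP2 encodes the beta subunit, which carries the catalytic sites, and its values turn on the 3 arrays. With all arrays it averaged 0.76 ± 0.84, the highest average and by far the largest spread, with a residual SD of 1.47 between arrays of a strain against 0.36 to 0.60 for the other 9 genes. No strain passed the test (limma, 0 of 17, though 2 did at a false discovery rate of 0.05, RM11a and YJM789). Without the 3 arrays the residual SD was 0.42, the average 0.67 ± 0.32, and ATP2 was called higher in PR, Y10, Y12 and YPS163 and above 0 in all 17 strains. In PR the arrays gave 1.35, 0.96 and 1.16, and in YPS163 1.35, 0.77 and 1.39. K1 was the lowest strain without those arrays, at 0.18, 0.01 and -0.03, values that do not overlap those of either strain.

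**Figure D2:**
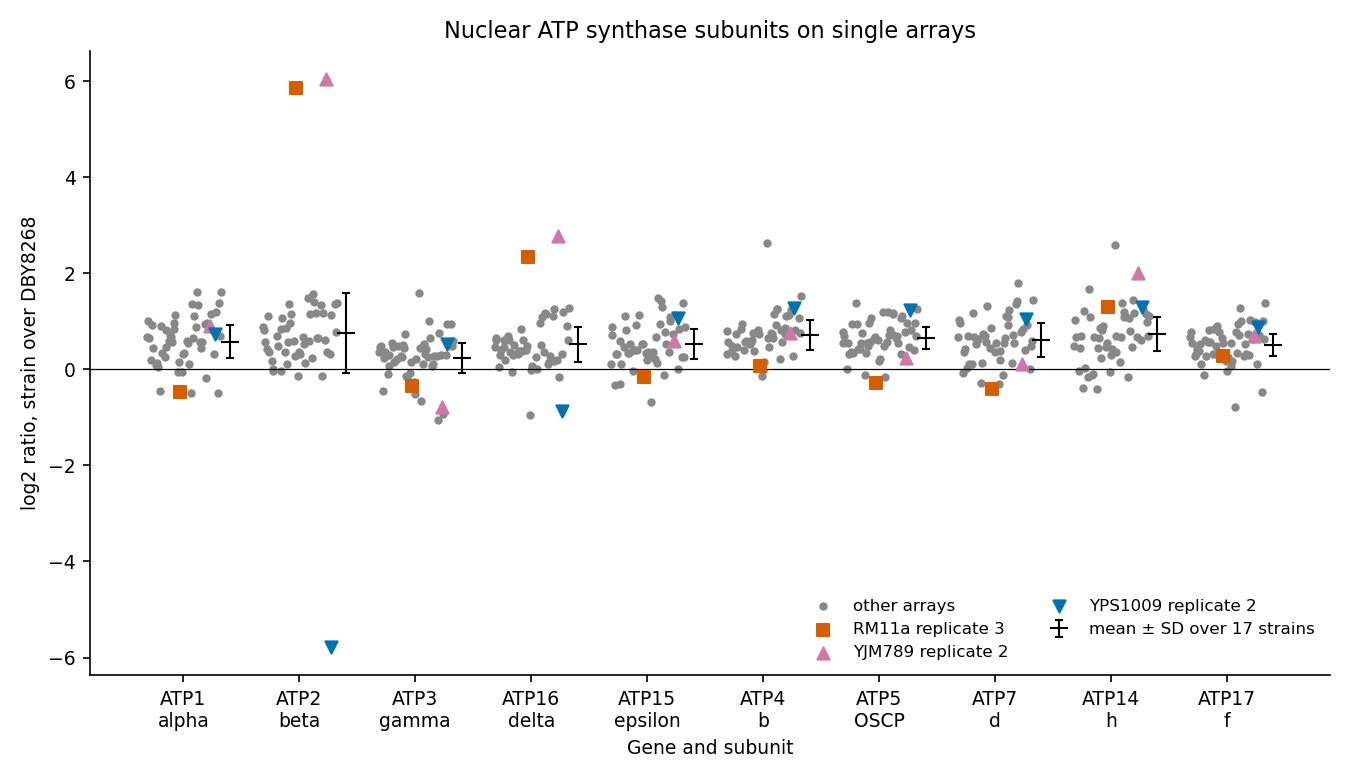
Log2 ratio over DBY8268 of each gene on every array (points, spread sideways by strain), with the mean and SD over the 17 strain means at the right of each gene. RM11a replicate 3, YJM789 replicate 2 and YPS1009 replicate 2 are marked in colour: they lie at 5.85, 6.04 and -5.78 for ATP2 and at 2.34, 2.78 and -0.86 for ATP16, and among the other arrays for most genes.

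In the central stalk, ATP3 differed least from DBY8268. The gamma subunit that it encodes is the rotor shaft inside the head. Its 52 values ran from -1.05 to 1.59 with a median of 0.29, and 12 were below 0. It averaged 0.23 ± 0.31, was above 0 in 13 strains and was called in none (limma, 0 of 17 at false discovery rates of 0.01 and of 0.05, and 0 when strains were fitted one at a time). YJM789 was the lowest strain, with 0.29, -0.78 and -0.94, and YPS163 the highest, with 0.95, 0.49 and 0.58. These arrays do not overlap, and the difference of -1.15 between YJM789 and YPS163 had an adjusted p of 0.030, short of 0.01. Single arrays spread widely: Y1 read 1.59, 0.45 and -0.67, and YJM308 read 0.27, -1.05 and 0.75.

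ATP16, the delta subunit at the foot of the central stalk, averaged 0.52 ± 0.37 and was called in no strain with all arrays (limma, 0 of 17, and 2 at a false discovery rate of 0.05). It shared the extremes of ATP2, at 2.34 on replicate 3 of RM11a (0.40 and 0.48 on the others), 2.78 on replicate 2 of YJM789 (0.19 and -0.17) and -0.86 on replicate 2 of YPS1009 (0.31 and 1.19). Without those arrays its values ran from -0.95 to 1.28, its average was 0.46 ± 0.35, and it was called higher in Y10, Y12, YJM308 and YPS163. SB was then the only strain below 0, with -0.95, -0.02 and 0.06, and its difference from YPS163 (0.90, 0.62 and 1.28, with no value on replicate 1) was -1.24. That difference passed the test without the 3 arrays (adjusted p = 0.0040) and not with them (adjusted p = 0.22).

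ATP15, the epsilon subunit beside delta, averaged 0.53 ± 0.32 and was called in Y12 (0.95, 1.43 and 1.29, adjusted p = 4.2e-04) and YJM789 (0.74, 0.59 and 1.12, adjusted p = 0.0098). Y12 was again highest, and none of its arrays overlapped those of Y1, the lowest strain, at -0.68, 0.29 and 0.35. The YJM789 call was lost without any one of that strain's arrays, the adjusted p reaching 0.11.

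The peripheral stalk held 15 of the 21 calls made with all arrays. Without the 3 arrays that stand apart, its genes ATP4, ATP5, ATP7 and ATP14 were called in 6, 7, 4 and 1 strains. The F1 genes ATP2 and ATP16, not called with all arrays, were then called in 4 strains each. ATP1 and ATP15 were called in 1 each and ATP3 in none. ATP5, the OSCP subunit that ties the stalk to the top of the head, was called most often, in 7 strains (K9, PR, Y10, Y12, YJM308, YPS1009 and YPS163), and had the smallest adjusted p of the mean over strains. It averaged 0.65 ± 0.23 with a low residual SD (0.36), and 50 of its 54 values were above 0. Its arrays read 0.73, 1.16 and 1.18 in Y12 and 0.40, 0.96, 0.70 and 1.26 in YPS163. I14 was the lowest strain (0.00, 0.54 and 0.31), below every array of Y12 and overlapping those of YPS163. In YPS1009 (0.46, 1.23 and 0.82) the call rests on the array that stood apart there: without it the mean was 0.64 and the adjusted p 0.075. In YJM789 the reverse held, with a mean of 0.66 (adjusted p = 0.013) over all arrays and 0.87 (adjusted p = 0.0046) without replicate 2.

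ATP4, subunit b, the long membrane-anchored rod of the stalk, averaged 0.72 ± 0.32 and was called in 6 strains (Y1, Y10, Y12, YJM308, YJM789 and YPS163). Only 2 of its 50 values were below 0, both in SB (-0.13, -0.01 and 0.15), whose mean was 0.00. Y12 read 0.93, 1.25 and 1.25, and YJM789 read 1.14, 0.76 and 1.23, all above every array of SB. The highest mean, 1.24 in Y1, came from arrays at 2.62, 0.65 and 0.46, and without replicate 1 it was 0.56 (adjusted p = 0.11). That array, from the small slide series yG4, also read 2.59 for ATP14 (0.70 and 0.36 on the others).

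ATP7, subunit d, averaged 0.60 ± 0.35 and was called in YJM308 and Y12. YJM308 read 1.35, 1.42 and 1.79, and a single array of another strain was above 1.35, replicate 4 of YPS163 (0.01, 0.49, 0.58 and 1.45). Its mean of 1.52 ± 0.23 (SE) was a 2.9-fold difference (adjusted p = 6.5e-06), and it was the only one of the 21 calls that held without each array of its own strain in turn. Y12 read 1.08, 0.92 and 1.23. In Y1, the lowest strain, the arrays gave -0.31, 0.39 and 0.20.

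ATP14, subunit h, averaged 0.73 ± 0.36 with a wide spread between arrays (residual SD 0.59) and was called in no strain (limma, 0 of 17, and 6 at a false discovery rate of 0.05). Its values ran from -0.40 to 2.59 with a median of 0.69. In YJM789 it had 2 values, 0.67 and 2.00, the higher on the array that stood apart, and the strain mean of 1.33 had an adjusted p of 0.0105, just above the threshold. Y12 was the steadiest high strain, at 1.20, 1.09 and 1.10. In the membrane sector, ATP17, subunit f, averaged 0.51 ± 0.22, the smallest SD over strains, and was called in Y12 (0.71, 1.28 and 1.00) and YJM789 (0.63, 0.69 and 0.98). The lowest strain was SB, at 0.17, -0.04 and 0.25, with no array inside the range of either.

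Ordered by their averages the genes ran ATP2, ATP14, ATP4, ATP5, ATP7, ATP1, ATP15, ATP16, ATP17 and ATP3. Among the first 9, neighbours differed by 0.01 to 0.07, less than the combined standard error in each case. The step to ATP3 was 0.28, with a combined standard error of 0.08. The mean of the 5 F1 genes was below that of the 4 peripheral stalk genes in 14 of 17 strains, by an average of -0.15 ± 0.23 (SD over strains), from -0.72 in YPS1009 to 0.20 in RM11a. Without the 3 arrays it was below in 16 strains, by -0.17 ± 0.18, with M8 as the exception (0.06). With all arrays but ATP2 and ATP3 left out of the F1 mean, that mean was below in 13 strains. These are differences from DBY8268 and not levels, and no test was made of this pattern.

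From strain to strain the values moved in small steps. With all arrays the median of the 10 genes was highest in Y12 (1.07), a strain from palm wine, followed by YJM789 (0.88), the clinical isolate YJM308 (0.83) and the oak strain YPS163 (0.81), and lowest in SB (0.19), K1 (0.28) and I14 (0.31). Without the 3 arrays that stand apart YJM789 came after YJM308 and YPS163. Each neighbouring pair in the order with all arrays differed by 0.01 to 0.20, less than the larger of both strains' SDs over the 10 genes. For the step of 0.20 from Y12 to YJM789, the larger SD was that of YJM789 (0.70), which includes its ATP2 mean of 2.33. The SD of Y12 was 0.18. Y12 had 6 calls, YJM789 4, YJM308 3, Y10 and YPS163 2 each, K9, PR, Y1 and YPS1009 1 each, and the other 8 strains none. In YJM789 the calls of ATP1, ATP15 and ATP17 were lost without its replicate 2 and the other 2 arrays that stand apart (adjusted p = 0.023, 0.017 and 0.030), with means of 1.00, 0.93 and 0.81. In 11 strains all 10 means were above 0, and in 13 without the 3 arrays. The calls of Y12 covered the head (ATP1), the central stalk (ATP15), the peripheral stalk (ATP4, ATP5 and ATP7) and the membrane sector (ATP17), and its other 4 means were 0.64 (ATP3), 0.90 (ATP16), 1.07 (ATP2) and 1.13 (ATP14).

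How the strains differed among themselves was asked against the mean of all 17 and against YPS163. Against the mean of strains 0 of 170 pairs were called (limma, 12 at an unadjusted p under 0.05, and 0 when strains were fitted one at a time), beside 2.67% of all gene and strain pairs. Against YPS163 0 of 160 pairs were called (11 at an unadjusted p under 0.05, and 0 one strain at a time), beside 2.00% of all pairs. The nearest to a call was ATP7 in YJM308, 0.92 ± 0.23 (SE) above the mean with an adjusted p of 0.0105, which fell below 0.01 under some other settings. A difference that misses the threshold does not show that strains had equal levels.

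In YJM308 the other genes of the chromosome that holds ATP7 also stood above the mean of strains in the median. On chromosome XI the other 321 genes of that strain had a median of 0.52 above the mean of strains, against -0.02 for genes of all other chromosomes, and ATP7 stood at 0.92. In YPS1009 the genes of chromosome XII had a median of 0.39 (502 genes), against -0.10 elsewhere, and ATP14 on that chromosome stood at 0.32 ± 0.33 (SE, adjusted p = 0.69). The study inferred from genomic DNA hybridization that all of chromosome XII is duplicated in YPS1009. It also reported that most genes on the duplicated chromosomes were not raised in transcript. YJM308 was not among the strains so hybridized. In the crosswise pairs the chromosomes were not shifted up: chromosome XII in YJM308 had a median of -0.05 and chromosome XI in YPS1009 of -0.12. ATP14 and ATP7 stood at 0.29 ± 0.33 and 0.19 ± 0.23 there (SE, limma, adjusted p = 0.72 and 0.76), neither called. The part of the chromosome in either value was not tested.

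The profiles of the genes over the 17 strains were alike to different degrees. With the mean of the other 9 genes, ATP15 correlated at 0.78, ATP16 at 0.76, ATP17 at 0.75, ATP5 at 0.68, ATP4 at 0.67, ATP14 at 0.65, ATP1 at 0.60 and ATP7 at 0.52, while ATP2 was at 0.20 and ATP3 at 0.08 (Pearson r over 17 strain means, which share arrays and the laboratory strain). Without the 3 arrays ATP2 was at 0.74 and ATP3 at 0.40, the lowest of the 10, and the others between 0.60 and 0.82. Among 4644 other genes with values in every strain, the profiles most like the mean of the 10 genes were those of COR1 (r = 0.87), a core subunit of the bc1 complex, MRP2 (0.86), a mitochondrial ribosomal protein, CYT1 (0.81), cytochrome c1, HEM12 (0.81), a heme synthesis enzyme, and TIM11 (0.80), subunit e of ATP synthase. Without the 3 arrays these were between 0.70 and 0.82.

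Respiratory chain complexes that feed the proton gradient differed from DBY8268 by more than ATP synthase did. The 9 nuclear genes of the cytochrome bc1 complex had a median average of 1.15 and 112 of 153 pairs called higher (73.2%), and the 9 nuclear genes of cytochrome c oxidase had a median of 1.30 and 73 of 150 pairs higher (48.7%) with 3 lower, against 0.59 and 12.4% for the 10 ATP synthase genes. The bc1 median was above the ATP synthase median in all 17 strains, and so was that of cytochrome c oxidase, also without the 3 arrays. No test compared the complexes. In Y12, where all were highest, ATP synthase stood at 1.07, bc1 at 1.63 and cytochrome c oxidase at 1.87, and in SB they stood at 0.19, 0.71 and 0.84. The bc1 genes ranged from QCR7 at 0.96 to RIP1, the iron-sulfur protein, at 2.14, and the oxidase genes from COX5B at -1.33, over the 14 strains with a value, to COX4 at 1.68. COX5B, the isoform of subunit 5 used at low oxygen, was called lower in 3 strains.

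**Figure D3:**
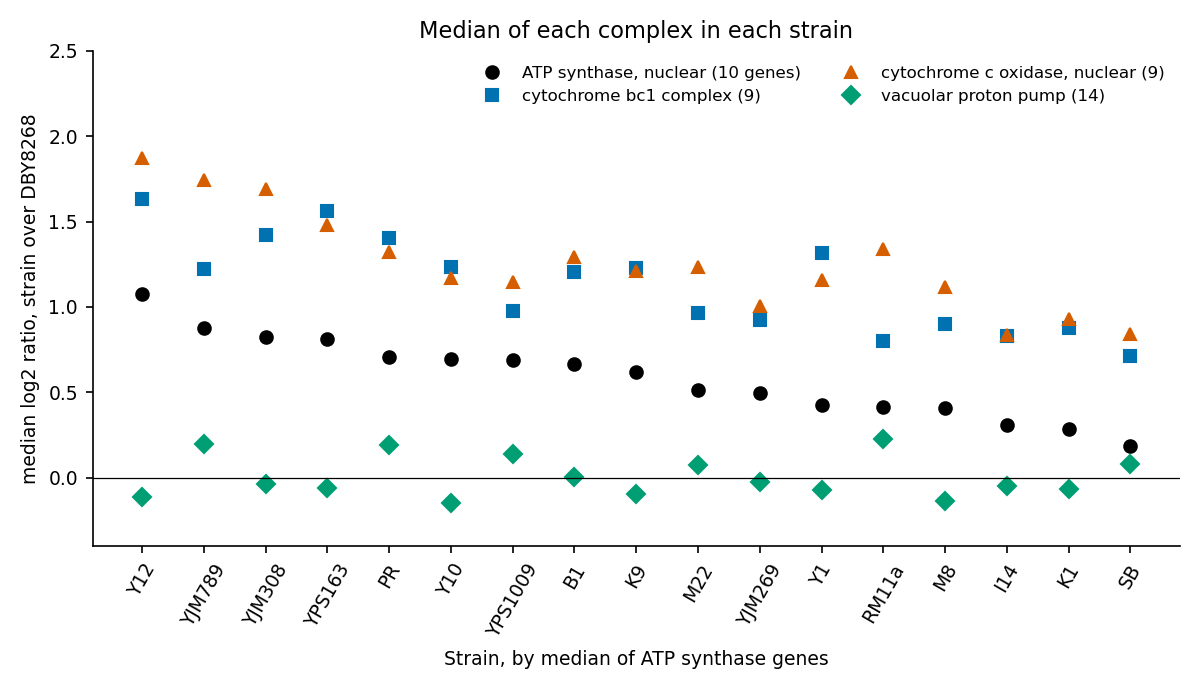
Median log2 ratio over DBY8268 of the genes of 4 complexes in each strain, with strains ordered by the ATP synthase median. The ATP synthase median falls from 1.07 in Y12 to 0.19 in SB, both respiratory complexes lie above it in every strain, and the vacuolar proton pump stays between -0.15 and 0.23.

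The vacuolar proton pump, a rotary enzyme related to ATP synthase that spends ATP to acidify the vacuole, had a median near that of all genes. Over its 14 genes the median was -0.04, with 0 of 238 pairs called higher and 9 lower, all 9 of VMA4 (average -0.51), and its highest average was STV1 at 0.42. In the mean over strains 4 of the 14 were called higher and 2 lower, beside 22.1% and 26.8% of all genes so tested. Without the 3 arrays that stand apart, VMA2 (-0.33) and VMA5 (-0.18) were also called lower. In every strain the median of the pump was below that of the ATP synthase genes.

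Other components of ATP synthase differed among themselves. The 4 small associated subunits were higher on average in every case, ATP18 at 0.58, ATP19 at 0.78, TIM11 at 0.94 and ATP20, subunit g, at 1.23, with 36 of 68 pairs called (52.9%). TIM11 alone was called in 15 strains, and together with ATP20 it takes part in pairing the enzyme into dimers. The 3 subunits encoded in mitochondrial DNA did not move as a set: ATP6, subunit a, was higher on average (1.02, 3 strains called), ATP8 lower (-0.70, 2 strains called) and OLI1, the ring subunit, at 0.15 (adjusted p = 0.15). Their SDs over strains (0.53 to 1.60) exceeded those of 9 of the 10 nuclear genes, ATP2 with its 3 arrays being the exception at 0.84, and RM11a was lowest for both ATP6 (-2.47) and ATP8 (-5.43). Per the study, each strain tested by genomic DNA hybridization, RM11a among them, had more copies of the mitochondrial genome than S288c. The part of copy number or of probe match in these values was not tested.

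**Figure D4:**
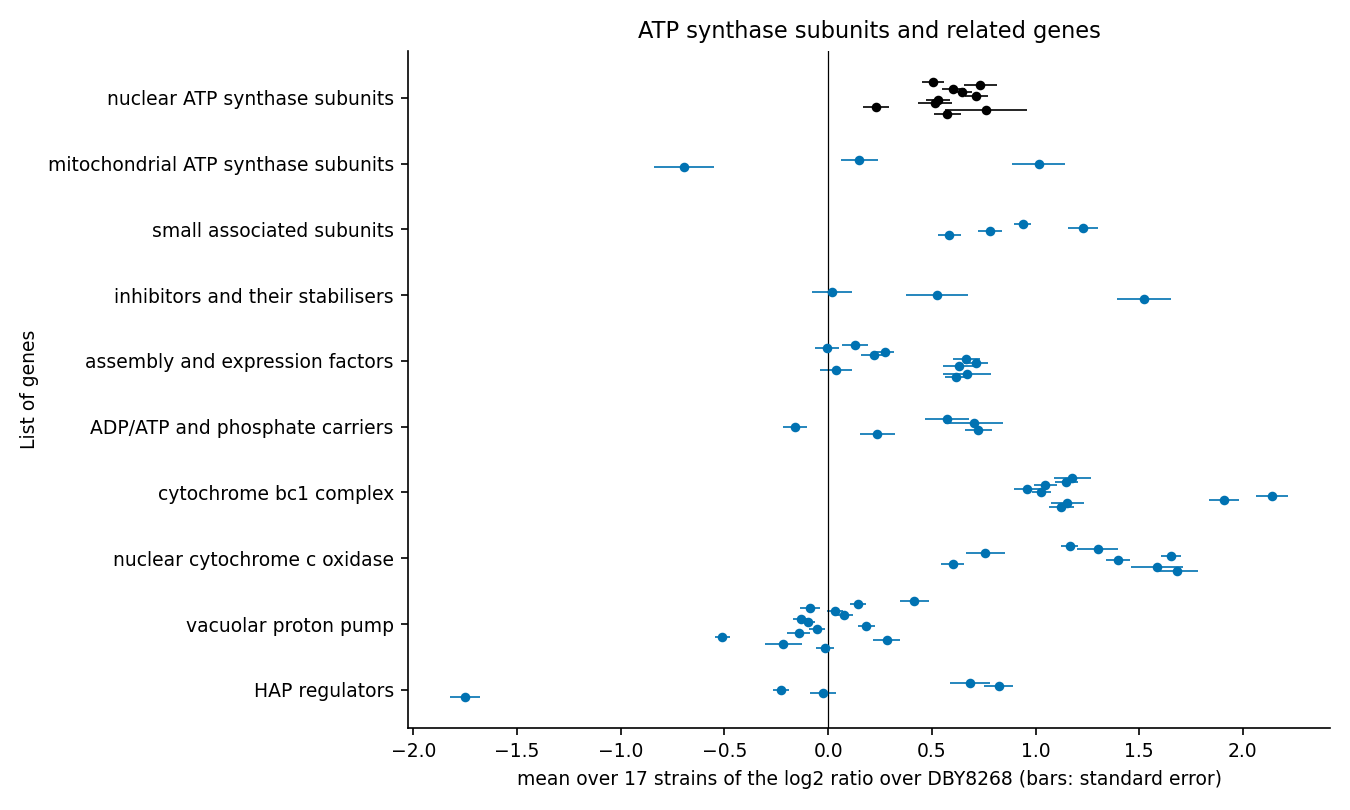
Average over 17 strains of the log2 ratio over DBY8268 for each gene (points, with standard errors) in the nuclear ATP synthase set at the top and in 9 lists of related genes. The 10 ATP synthase genes lie between 0.23 and 0.76, below most bc1 and oxidase genes and above most genes of the vacuolar pump, and HAP1 stands at -1.75 at the far left.

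Among regulators of the enzyme, INH1, which blocks ATP hydrolysis when the gradient collapses, averaged 1.52 ± 0.79 (SD over strains) and was called in 7 strains, and its average was above that of each of the 10 subunits. STF1, a related inhibitor, averaged 0.53 (adjusted p = 0.0027), and STF2 averaged 0.02 (adjusted p = 0.88). Of the 11 assembly and expression factors 10 could be tested in the mean over strains. Of these 7 were higher and 0 lower, beside 22.1% and 26.8% of all genes so tested. ATP25 had the highest average (0.71) and ATP10, not testable there, the lowest (-0.10, over 16 strains). ATP11 (0.62) and ATP12 (0.67), the chaperones of the beta and alpha subunits, were called, while AEP3 (-0.01), ATP22 (0.04) and NCA2 (0.13), which act on the mitochondrial ATP6 and ATP8 transcripts, did not pass. Others that did were AEP1 (0.22), AEP2 (0.27), ATP23 (0.63) and FMC1 (0.67).

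The carriers that supply the enzyme were mixed. PET9, the main ADP/ATP carrier, averaged 0.72, the phosphate carriers MIR1 and PIC2 0.70 and 0.57, and all 3 were called, while AAC1 (0.24, adjusted p = 0.015) and AAC3 (-0.16, adjusted p = 0.020), the minor ADP/ATP carriers, were not. Of the transcription factors that act on respiratory genes, HAP4, the glucose-repressed activating subunit of the Hap2/3/4/5 complex, averaged 0.82 and was above 0 in all 17 strains, with 3 called. HAP5 averaged 0.69, HAP2 -0.03 (adjusted p = 0.74) and HAP3 -0.23 (adjusted p = 5.2e-06). HAP1, the heme-dependent activator, averaged -1.75 and was called lower in 14 strains. DBY8268 derives from S288c, and the study cites earlier work tying differences in several gene categories, mitochondrial function included, to a known HAP1 polymorphism. Per the study, targets of HAP1 and of HAP4 were over-represented among the genes whose expression set S288c apart. A transcript ratio does not show how active the factor was in any strain. The part of these regulators in the values of the ATP synthase genes was not tested.

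Dye and slide series were checked last. The dyes were reversed on 18 arrays, with the strain in Oyster 550, and not on the 36 others, with the strain in Oyster 650. All 18 were of slide series yG6. Outside M22, RM11a and YJM789, every array with the strain in Oyster 650 was of another series. In those other strains dye and slide series cannot be told apart. No gene of the 10 was called for the dye term (limma, 2 at an unadjusted p under 0.05, smallest adjusted p 0.19 for ATP7), beside 2.42% of all genes. Yet 8 of the 10 read higher with the strain in Oyster 550, ATP7 by 0.27 ± 0.11 (SE) and ATP15 by 0.28 ± 0.12. Within the slide series, the mean over the 25 arrays of series yG5 and over the 24 of yG6 was above 0 for each of the 10 genes, ATP5 being at 0.69 ± 0.32 and 0.60 ± 0.39 (SD over arrays) and ATP3 at 0.22 ± 0.46 and 0.18 ± 0.48. ATP2 was at 0.46 ± 1.39 in yG5 and 1.09 ± 1.56 in yG6, with the high arrays of RM11a and YJM789 and the low array of YPS1009 among them.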

How the data were processed

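The values analysed were the log2 ratios of strain over DBY8268 that the authors deposited, 1 per gene and array. Per the study's methods, the authors removed flagged spots and spots with poor pixel correlation, then mean-centered each array by region, so a shift of all transcripts together cannot be seen. Dye-reversed arrays were already turned. The genome build behind the oligonucleotides is not given in the sources used here, so no coordinates are printed. Symbols came from a RefSeq gene table of assembly R64, which matched 5824 of 6264 names. Columns of other series numbered 0. The number of arrays limits the precision.

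Differences were tested with limma 3.58.1 in R 4.3.3 (lmFit and eBayes), with a coefficient per strain and 1 variance per gene over 54 arrays, no filter and no imputation, and Benjamini-Hochberg adjustment within a strain over all genes with a value (6033 in some strain). The threshold was a false discovery rate of 0.01, as in the study. The tests were of each strain against DBY8268 (ratio against 0), against the mean of strains and against YPS163, of the mean over strains (4654 genes), and of a dye term. Per the study's methods, replicate arrays came from separate cultures.

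The 10 genes, the 9 lists of related genes and the tests were chosen with earlier results of these data known. The text names all 10, the members of each list with the largest or smallest average or called in the mean over strains, the 5 genes most alike by Pearson r, and ATP14 in YPS1009 and ATP7 in YJM308. Genes of a list beyond this rule were named after their values were seen. For the bc1, oxidase and vacuolar pump lists, called genes other than the extremes are given as counts. Shared replicate numbers were not used to pair the arrays in the main tests. The fit was tested on simulated ratios.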

Additional observations from a re-analysis of the deposited data

How the results depend on the processing

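The 21 calls against DBY8268 numbered 31 with arrays centred on the median, 31 with a dye term, 27 with arrays scaled to one spread, 25 with slide as a random block and 29 without the 3 arrays that stand apart. They moved further to 12 with genes present on all arrays (3 of the 10), 41 with slide series as a block, 2 with series yG5 alone (both among the 21), 6 with yG6 alone (3 among the 21), 2 with strains fitted one at a time (0 among the 21), 46 without series yG3 and yG4, 51 at a false discovery rate of 0.05, and 15 (without Y12 replicate 3) to 29 (without Y1 replicate 1) with an array left out. Calls lower than DBY8268 were 0 throughout. With the replicate number as a replicate block there were 39 calls. Whether the numbers pair the arrays is not settled. Deviations of same-numbered arrays correlated at -0.75 to 0.68 over 411 pairs (median 0.06, against -0.03 for different numbers). Of these pairs 184 correlated above 0.1, and 33 of 54 arrays correlated best with their own number. The last replicate of every strain was a yG6 array with the strain in Oyster 550, so the number goes partly with dye and slide series.

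Against the mean of strains 1 pair, ATP7 in YJM308, was called with median centring, a dye term, slide series as a block, the replicate block, without the 3 arrays, and at a false discovery rate of 0.05. The same count, 1, was obtained with the error of the mean included, and it was 2 without yG3 and yG4. Leaving out an array gave 0 to 1. Against YPS163 1 pair was called with scaled arrays (ATP4 in SB), the replicate block (ATP7 in YJM308), without the 3 arrays (ATP16 in SB) and at 0.05 (ATP3 in YJM789), and 2 without yG3 and yG4. Leaving out an array gave 0 to 1.

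All 10 genes were called in the mean over strains except that 3 of the 3 testable were with complete genes, 8 with yG5 alone (ATP2 and ATP3 not) and 6 with yG6 alone. With yG5 alone the mean lacked M22, RM11a and YJM789, which had no array of that series. ATP4 was not testable with yG6 alone, as it had no value on the yG6 array of PR. The median over the genes lay between 0.57 and 0.70 under these settings. No average of a gene changed sign. The alternatives that drop the 3 arrays, drop yG3 and yG4 or use slide as a random block were chosen after seeing the data. Why the counts moved was not tested, beyond fewer genes or arrays by construction.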
